A study of Mus musculus with 3 samples.

Results

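The genes described here are the mouse Zfp genes, protein-coding genes whose symbol is Zfp followed by a number. They were read in CH12 cells, a mouse B lymphoma line, left as a control or treated with TGFb at 5 ng/ml for 6 h or 24 h. All 3 cultures were of the same line, with no genetic change named in the labels, and each group was 1 mRNA library, so no value below has a replicate and no test between groups was possible. Genes were chosen by symbol and selected on 1 measured value, an expected count of at least 100 in the control library, which left 254 of 355 such genes in the table, out of 20668 protein-coding genes. Their control levels are therefore given as a description only.

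Most Zfp genes encode proteins built of C2H2 zinc fingers, short loops in which a pair of cysteines and a pair of histidines hold a zinc ion, and arrays of such fingers bind DNA. Many also carry a KRAB domain at the N-terminus. This domain recruits Trim28 (also called KAP1), which brings in the histone methyltransferase Setdb1 and HP1 proteins and silences the bound DNA, above all transposable elements. The cytokine TGFb, whose receptors act through Smad factors, directs B cells, CH12 cells among them, towards IgA.

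The libraries held 51386081 counts (control), 64229801 counts (6 h) and 27487221 counts (24 h), so the 24 h library was the shallowest. Levels are given as normalized CPM, counts relative to library size after edgeR's TMM scaling, in which 1 count was worth 0.0206, 0.0155 and 0.0345 CPM. B cell genes marked the cells in each library, the summed level of 8 markers being 1729 CPM in the control library, 1609 CPM at 6 h and 1842 CPM at 24 h, although Cd22 among them went from 139 to 37.0 and 15.6 CPM. The TGFb target Skil, a Smad corepressor, stood at 36.8, 145 and 170 CPM. The summed level of 7 myeloid markers was 28.7, 41.5 and 68.3 CPM, with Lyz2 and Cd14 at 6 counts or fewer in every library. Most of the rest of that list stood above control at 24 h, Adgre1 at 2.04, 2.50 and 12.9 CPM, Itgam at 0.864, 0.902 and 3.24 CPM, Csf1r at 8.33, 16.4 and 25.8 CPM, and Fcgr3 at 3.31, 7.24 and 8.58 CPM. For 7 T cell markers, mostly Lck and Cd5, the sums were 215, 373 and 363 CPM, with Cd3e, Cd3d and Cd3g at 17 counts or fewer and Cd4 lower after TGFb (2.90, 1.17 and 1.03 CPM). The 6 fibroblast and endothelial markers summed to 3.72, 7.56 and 13.1 CPM. The part of these shifts in the Zfp values was not tested, and in bulk RNA a change in RNA per cell and a change in the make-up of the culture cannot be told apart.

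Zfp genes were low-abundance transcripts. The median control level of the 254 genes was 6.77 TPM (the deposited level per length of transcript), against 22.98 TPM over the 9934 protein-coding genes with the same minimum of counts. Their levels ran from 0.55 TPM for Zfp831 to 188 TPM for Zfp207, a spindle assembly and splicing factor. After Zfp207 came Zfp771 (108.44 TPM), Zfp706 (107.75 TPM), Zfp622 (102 TPM) and Zfp106 (81.8 TPM). None of these 5 had a KRAB match. Together the 254 genes took 0.659% of the control library's counts, 0.735% of those at 6 h and 0.805% of those at 24 h. The genes just inside the minimum were Zfp458 (101 counts in control), Zfp786 (102 counts) and Zfp983 (105.02 counts). Just outside lay Zfp455 (98.04 counts), Zfp975 (97.88 counts) and Zfp708 (95.67 counts). Of the 101 Zfp genes left out, 40 had 0 counts in control and 29 had 0 counts in every library. Among the rest of those 101, 18 reached 100 counts at 6 h, in the deepest library, and 1 did so at 24 h, Zfp974, which went from 83.45 to 198.89 and 121.42 counts (1.71, 3.09 and 4.17 CPM). Zfp608, also left out, went down from 78 to 44 and 9 counts (1.60, 0.684 and 0.310 CPM). Zfp57, the imprinting factor of early embryos, had 0, 0 and 2 counts.

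At 6 h the Zfp genes as a group lay slightly above control. The median log2 ratio over the 254 genes was 0.16, with an interquartile range of 0.00 to 0.33, whereas the median over all 9934 genes was -0.02. With TMM 193 of 254 Zfp genes (76.0%) had a ratio above 1, against 46.9% of all genes. The 193 became 172 with the length trend removed and 230 with TPM. Few Zfp genes were far from control. By the size rule used here, a ratio of at least 1.5 with at least 30 counts in the higher library, 10 of 254 (3.94%) were higher and 2 (0.787%) lower, against 5.09% and 2.04% of all genes. With deposited TPM the split was 34 higher and 2 lower, but TPM also moved the median of all genes up by 0.16. The share of all genes was counted with TMM only. At a limit of 2-fold with TMM, 3 Zfp genes were higher and 1 lower, against 1.43% and 0.282% of all genes. The 10 higher genes were Zfp811, Zfp691, Zfp831, Zfp52, Zfp810, Zfp709, Zfp950 and Zfp827, and, named here because they complete the count, Zfp369 and Zfp329. Zfp428 and Zfp781 were the lower ones.

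At 24 h the group lay further above control. The median log2 ratio was 0.26, with an interquartile range of -0.02 to 0.48. Over all 9934 genes it was -0.05. With TMM 185 of 254 Zfp genes (72.8%) had a ratio above 1, against 46.3% of all genes. The 185 became 170 with the length trend removed and 229 with TPM. By the 1.5-fold rule 42 Zfp genes (16.5%) were higher and 5 (1.97%) lower, while 13.3% of all genes were higher and 12.3% lower. With TMM the higher share was thus near that of all genes, and the lower share was well below it. With total counts the split was 77 and 2, and with TPM 110 and 2. These scalings moved the median of all genes up as well, by 0.16 and 0.26. The share of all genes was not counted under them. At 2-fold, 10 Zfp genes were higher and 1 lower, against 4.69% and 1.98% of all genes. Both comparisons use the same control library, so a high or low reading in that library enters both. The medians were above 0 under each scaling tried and ranged from 0.14 to 0.32 at 6 h and from 0.23 to 0.53 at 24 h. Deposited TPM gave the highest values and moved the median of all genes up by 0.16 and 0.26. Relative to that median the Zfp genes stood 0.18 higher at 6 h and 0.31 higher at 24 h with TMM, and 0.18 and 0.31 higher with TPM.

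The log2 ratios went with transcript length, in Zfp genes as in all genes. Zfp transcripts were long, with a median of 3469 bases (range 1016 to 11678) against 2855 bases over all genes. With the 254 genes split by length into 4 groups of 63 or 64, the shortest group had a median log2 ratio of 0.07 at 6 h and 0.07 at 24 h. It was 0.12 and 0.22 in the second group, 0.16 and 0.31 in the third, and 0.27 and 0.42 in the longest. All genes in the same length ranges had medians of -0.12 and -0.21, -0.01 and -0.04, 0.06 and 0.07, and 0.16 and 0.26. Both series climbed with length, and the Zfp genes sat above the other genes in each range. The plot of ratio against length shows the shared slope.

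**Figure D1:**
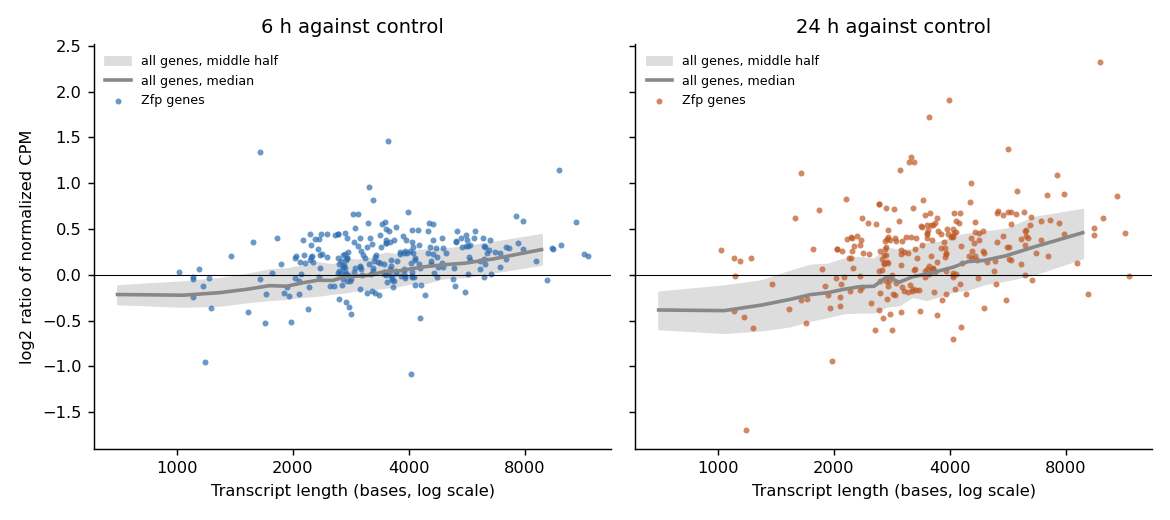
Log2 ratio of normalized CPM (y axis) against transcript length in bases (x axis, log scale) for 6 h (left) and 24 h (right) against control, 1 library each. Points are the 254 Zfp genes, and the grey line and band are the median and interquartile range of all 9934 genes in 20 bins of length. The line climbs from left to right, and most points lie on or above it.

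Control level went with the ratios as well, in the other direction. With all genes split by control level into 10 groups, the lowest had medians of 0.17 at 6 h and 0.33 at 24 h, and the highest -0.18 and -0.35. Of the 254 Zfp genes, 63 fell in that lowest group and 3 in the highest. Those 63 genes stood at medians of 0.30 (6 h) and 0.43 (24 h). The control count enters both this grouping and the ratio, and the minimum of 100 counts was set on control for Zfp and other genes alike.

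Set beside genes of similar length and control level, the Zfp genes as a group were hardly displaced. For each Zfp gene, the 50 protein-coding genes nearest in log2 length and log2 control CPM were taken, none of them a Zfp gene. The median of these 50 was subtracted from the gene's own log2 ratio. The median difference was 0.02 at 6 h, with 138 of 254 genes above their similar genes, and -0.01 at 24 h, with 123 of 254 above. The similar genes' own medians were 0.14 and 0.23, close to the 0.16 and 0.26 of the Zfp genes. The sign of the 24 h difference is not a result, since it turned with the number of similar genes. Matching on length alone left a difference of 0.12 at 6 h and 0.21 at 24 h. The control count enters both the matching on level and the ratio, so the part of level itself was not tested.

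**Figure D2:**
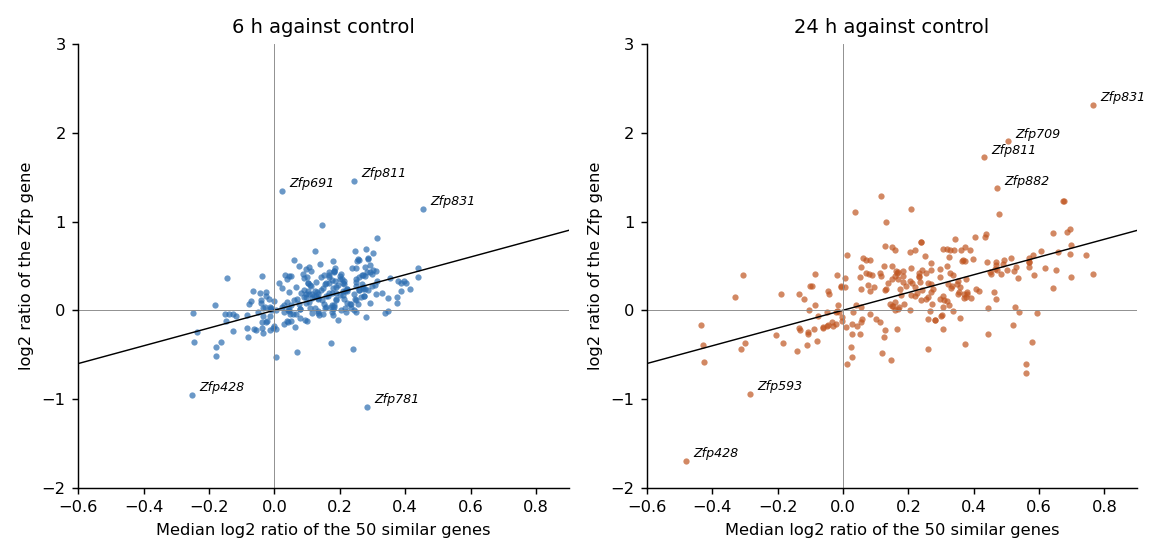
Log2 ratio of each Zfp gene (y axis) against the median log2 ratio of its 50 genes of similar length and control level (x axis), at 6 h (left) and 24 h (right) against control. Each point is 1 of the 254 Zfp genes, the diagonal marks equal values, and the median distance from it is 0.02 at 6 h and -0.01 at 24 h.

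Zfp genes also scattered less than their similar genes. Around the median of the similar genes, the interquartile range of the Zfp genes was 0.27 log2 units at 6 h and 0.42 at 24 h. That of the similar genes themselves was 0.35 and 0.58. Only 14 Zfp genes (5.51%) lay more than 0.5 log2 units from that median at 6 h and 35 (13.8%) at 24 h, against 13.4% and 28.9% of the similar genes. By the 1.5-fold rule 9.83% of the similar genes were higher at 6 h and 24.1% at 24 h, and 2.13% and 6.5% lower. The shares among Zfp genes were lower in each of these 4 cases. This is a description of these libraries without a test.

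Counting error was described gene by gene. The exact 95% interval of the ratio, which covers counting error alone, lay above 1 for 130 genes, below 1 for 32 and held 1 for 92 at 6 h. At 24 h these numbers were 149, 42 and 63. The same was not counted over all genes, whose ratios also went with length and control level. These numbers are therefore not a trait of the Zfp genes. Reads were counted without molecular identifiers, so the intervals do not cover amplification or differences between cultures.

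The 254 proteins differ in structure, and the coding sequences of the GENCODE vM21 transcripts (GRCm38, the mm10 build) were used to class them. A C2H2 finger was matched as Cys, 2 to 4 residues, Cys, 12 residues, His, 3 to 5 residues, His. In all, 240 genes had at least 2 such matches, with a median of 10 and at most 36. A KRAB match was found in 147 genes, with a median of 12 fingers, and 107 genes had none, with a median of 7 fingers. The coding stretch of 1 finger is shown for 6 genes that the results turn on, the first 4 higher after TGFb and the last 2 lower, with the codons of the zinc-binding cysteines and histidines in capitals, from the coding strand of GENCODE vM21 transcripts.
Zfp709: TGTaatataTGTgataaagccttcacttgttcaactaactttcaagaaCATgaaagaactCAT
Zfp811: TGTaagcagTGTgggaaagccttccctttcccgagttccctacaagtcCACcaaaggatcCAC
Zfp691: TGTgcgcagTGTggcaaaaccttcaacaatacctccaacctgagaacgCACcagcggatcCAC
Zfp831: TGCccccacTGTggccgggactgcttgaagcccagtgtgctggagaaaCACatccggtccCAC
Zfp428: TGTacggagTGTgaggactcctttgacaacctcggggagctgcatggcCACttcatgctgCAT
Zfp593: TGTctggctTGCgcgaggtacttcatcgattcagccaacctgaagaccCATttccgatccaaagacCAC
The spacing of the capitals is the same in the first 5. Zfp593 has a longer gap between its histidine codons, 5 residues rather than 3, and it and Zfp428 carry this 1 finger only. Zfp709 carries 18 fingers, Zfp811 13, Zfp691 7 and Zfp831 2.

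KRAB genes had the higher medians and the lower control levels. For the 147 genes with a KRAB match the median log2 ratio was 0.22 at 6 h and 0.31 at 24 h, and their median control level was 4.08 TPM. By the 1.5-fold rule 6 were higher and 1 lower at 6 h, and 26 were higher and 3 lower at 24 h. These are 4.08% and 0.680% at 6 h, against 5.09% and 2.04% of all genes, and 17.7% and 2.04% at 24 h, against 13.3% and 12.3%. The 73 genes with no KRAB match and at least 5 fingers had medians of 0.12 and 0.22, at a control level of 12.21 TPM. In the 22 genes with no KRAB match and 2 to 4 fingers they were 0.01 and 0.06, and in the 12 with at most 1 finger -0.04 and -0.12. The last group was above 0 with total counts and TPM at both times, and the 2-to-4-finger group below 0 at 6 h with DESeq2 size factors. After subtraction of the similar genes the first 3 classes lay closer together. At 6 h the median differences were 0.03, 0.02, 0.01 and -0.13 in the order just given. At 24 h they were -0.02 for KRAB genes, 0.00 for those with at least 5 fingers and no KRAB match, 0.04 for those with 2 to 4 fingers and -0.10 for those with at most 1. The plot by protein class shows both scales.

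**Figure D3:**
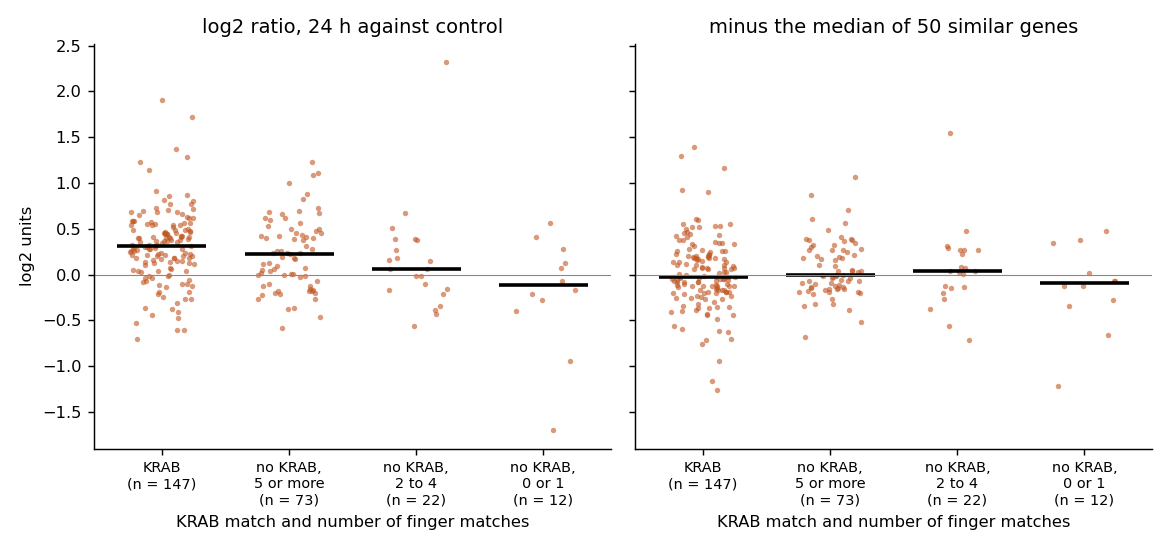
Log2 ratio at 24 h against control (left) and the same minus the median of 50 similar genes (right) for the 254 Zfp genes by KRAB match and number of finger matches. Points are genes, 1 library per time, and bars are medians, which run from 0.31 for KRAB genes to -0.12 for genes with at most 1 finger on the left and from 0.04 to -0.10 on the right.

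Zfp831 had the highest ratio of the 254 genes at 24 h. This gene (chromosome 2, 174598682 to 174710832, GRCm38) makes a long transcript of 9805 bases and a protein with 2 fingers and no KRAB match. It had 3.58 CPM in control, 7.90 CPM at 6 h and 17.85 CPM at 24 h, from 174, 508 and 518 counts. The level was thus 2.21-fold above control at 6 h (interval 1.85 to 2.64) and 4.99-fold at 24 h (4.19 to 5.96). Its similar genes had medians of 0.46 and 0.77 on the log2 scale, and Zfp831 stood at 1.14 and 2.32. At 0.55 TPM it was also the lowest of the 254 genes per length in control.

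Zfp709 and Zfp882 are neighbours on chromosome 8, and both were higher mainly at 24 h. Zfp709 (71882068 to 71892565) had 7.39 CPM in control, 11.91 CPM at 6 h and 27.61 CPM at 24 h. It stood 1.61-fold above control at 6 h (1.42 to 1.83) and 3.74-fold at 24 h (3.30 to 4.24). Zfp882 (71908606 to 71918851) had 7.90, 10.66 and 20.51 CPM, 1.35-fold above control at 6 h (1.19 to 1.53) and 2.60-fold at 24 h (2.28 to 2.96). For both genes the step from 6 h to 24 h was larger than that from control to 6 h. The next genes along, Zfp617 (26.3, 32.6 and 39.5 CPM) and Zfp961 (24.3, 26.2 and 31.4 CPM), started from more TPM in control (14.00 and 14.12, against 2.87 for Zfp709 and 2.13 for Zfp882) and stood closer to it after TGFb, 1.5-fold and 1.29-fold above control at 24 h. All 4 carry a KRAB match, and all 4 have whole counts in each library, so the counts show no sign of reads split with another gene. Whether single reads mapped to 1 place only was not checked. The promoter windows of the 2 genes with the larger ratios are shown because the genes lie side by side, from 250 bases before to 50 after the start (RefSeq, GRCm38.p6, plus strand), Zfp709 at chr8:71881818-71882117 and Zfp882 at chr8:71908356-71908655. Capitals mark CAGAC (or GTCTG on the other strand), which holds the core Smad-binding letters, and GGCGC (or GCGCC), a GC-rich Smad motif.
Zfp709: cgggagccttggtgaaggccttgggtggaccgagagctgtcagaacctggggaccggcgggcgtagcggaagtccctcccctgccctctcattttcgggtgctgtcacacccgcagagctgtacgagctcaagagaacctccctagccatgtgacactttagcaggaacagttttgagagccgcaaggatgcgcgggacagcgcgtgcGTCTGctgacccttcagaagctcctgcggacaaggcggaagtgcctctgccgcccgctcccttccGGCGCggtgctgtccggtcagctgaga
Zfp882: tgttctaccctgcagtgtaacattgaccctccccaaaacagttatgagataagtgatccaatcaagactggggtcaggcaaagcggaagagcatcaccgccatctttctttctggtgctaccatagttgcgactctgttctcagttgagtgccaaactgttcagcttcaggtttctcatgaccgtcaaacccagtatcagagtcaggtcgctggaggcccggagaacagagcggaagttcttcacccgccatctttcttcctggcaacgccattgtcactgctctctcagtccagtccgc
The Zfp709 window holds 1 match of each motif, and the Zfp882 window holds none.

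Zfp811 and Zfp691 were the highest at 6 h. Zfp811 (chromosome 17, 32795676 to 32810057), a KRAB gene with 13 fingers, had 4.75 CPM in control, 13.04 CPM at 6 h and 15.72 CPM at 24 h. It was 2.74-fold above control at 6 h (2.37 to 3.19) and 3.31-fold at 24 h (2.82 to 3.89), so most of the distance from control was there at 6 h. Its window (RefSeq, GRCm38.p6, minus strand, chr17:32809882-32810181) is shown with the same capitals and holds 2 matches of the first motif and none of the second.
Zfp811: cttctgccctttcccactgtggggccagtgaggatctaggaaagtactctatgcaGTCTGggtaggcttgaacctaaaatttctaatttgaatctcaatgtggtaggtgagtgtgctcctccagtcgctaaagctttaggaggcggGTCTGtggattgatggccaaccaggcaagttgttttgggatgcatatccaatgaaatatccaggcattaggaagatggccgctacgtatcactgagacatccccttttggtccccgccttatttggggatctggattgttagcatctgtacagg
Zfp691 (chromosome 4, 119169516 to 119174195), with 7 fingers and no KRAB match, had 9.01, 22.90 and 19.40 CPM. It stood 2.54-fold above control at 6 h (2.28 to 2.83) and 2.15-fold at 24 h (1.90 to 2.45). Among the 10 genes at least 2-fold higher at 24 h, Zfp691 was lower at 24 h than at 6 h, with a log2 ratio of -0.24 between the times (ratio interval 0.768 to 0.934). Its transcript of 1640 bases lies in the length range where other genes had medians below 0.

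Further higher genes were spread over the genome. Zfp52 (chromosome 17), a KRAB gene, had 8.07, 15.70 and 19.61 CPM and was 2.43-fold above control at 24 h (2.13 to 2.77). Zfp810 (chromosome 9), also a KRAB gene, had 2.90, 5.11 and 6.82 CPM, 2.35-fold (1.89 to 2.94). Zfp950 (chromosome 19) had 8.85, 14.05 and 19.47 CPM, 2.20-fold (1.94 to 2.50), but its span overlaps the kinase gene Grk5. In all, 88 of the 254 genes overlap another RefSeq gene, 32 of them a protein-coding one, and whether the counting used strand is not given in the sources used here. Zfp827, which recruits the NuRD complex and has been studied at telomeres, had 30.74, 47.90 and 65.27 CPM, 2.12-fold (1.98 to 2.27). Zfp467, named here because it completes the 10, had 2.35, 3.48 and 5.51 CPM, 2.35-fold (1.84 to 3.02).

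**Figure D4:**
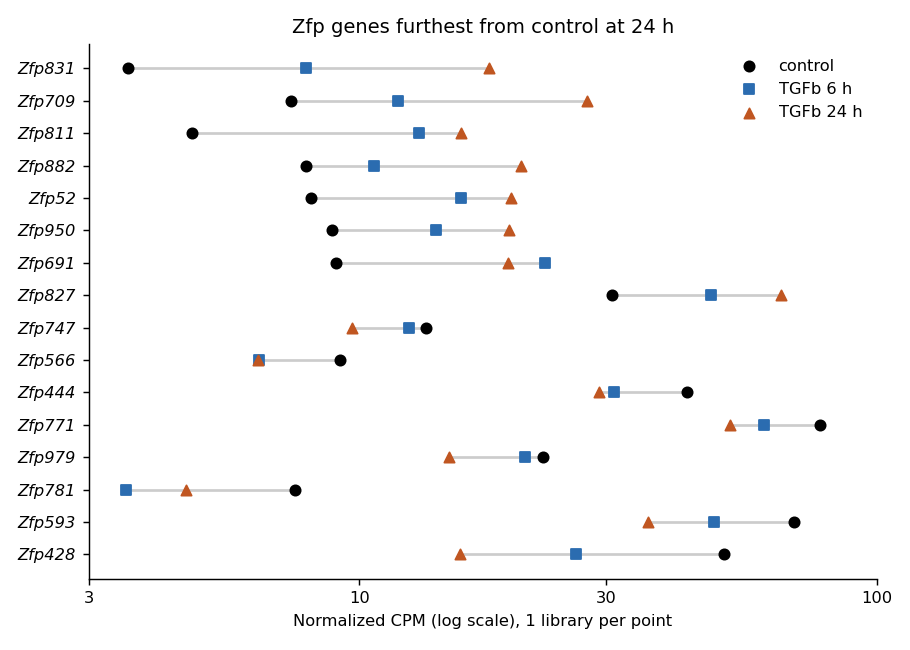
Normalized CPM (x axis, log scale) in the control, 6 h and 24 h libraries for the 8 highest and 8 lowest Zfp genes at 24 h, ranked by the ratio of CPM + 1. Each point is 1 library, and the grey line spans the 3 values. Zfp831 runs from 3.58 to 17.85 CPM and Zfp428 from 50.78 down to 15.65 CPM.

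Zfp428 was the lowest of the 254 genes at 24 h. This gene (chromosome 7, 24504548 to 24515682) encodes a protein of 189 residues with 1 finger. It had 50.78 CPM in control, 26.26 CPM at 6 h and 15.65 CPM at 24 h, from 2468, 1689 and 454 whole counts. It was 1.93-fold lower than control at 6 h (1.82 to 2.06) and 3.25-fold lower at 24 h (2.94 to 3.59). Its similar genes were also below control, with medians of -0.25 and -0.48, and Zfp428 stood at -0.95 and -1.70. It was the 1 gene of the 254 at least 1.5-fold lower at 24 h than at 6 h (1.68-fold, 1.51 to 1.87). Its window (RefSeq, GRCm38.p6, plus strand, chr7:24506837-24507136) is shown because it holds 2 matches of ATGCAAAT, the octamer bound by Oct factors in B cells, marked in capitals beside the motifs above. This window lies inside the span given above rather than at its first base, since the nearest window available was taken.
Zfp428: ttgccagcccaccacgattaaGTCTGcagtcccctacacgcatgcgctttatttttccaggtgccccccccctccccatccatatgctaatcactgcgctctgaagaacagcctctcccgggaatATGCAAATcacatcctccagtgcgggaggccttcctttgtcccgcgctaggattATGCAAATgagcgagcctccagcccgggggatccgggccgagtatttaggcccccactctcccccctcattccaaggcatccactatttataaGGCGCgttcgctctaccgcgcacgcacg
The octamer was searched after this window had been read. Either strand of it was found in 1.74% of all 32851 promoter windows and in 6 of the 211 Zfp genes with a window. For the Zfp genes 1 window each was picked, which was not done for the full set. The others were Zfp263, with 2 matches, and Zfp120, Zfp207, Zfp296 and Zfp345, with 1 each. Their log2 ratios at 24 h ran from -0.37 for Zfp296 to 0.50 for Zfp120, so windows with the octamer went with values on both sides of control.

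The remaining lower genes were fewer and most had shared reads. Zfp593, a factor of ribosome biogenesis with 1 finger, had 69.25, 48.38 and 36.08 CPM and was 1.92-fold lower than control at 24 h (1.79 to 2.06). Zfp781 had 7.53, 3.54 and 4.62 CPM, 2.12-fold lower at 6 h (1.8 to 2.52) and 1.63-fold at 24 h (1.33 to 2.003). Zfp979 had 22.67, 20.89 and 14.89 CPM, 1.52-fold lower at 24 h (1.36 to 1.71). These 3 genes have fractional expected counts, which marks reads shared with another gene, so their values are uncertain. Zfp786, at 2.10, 1.55 and 1.38 CPM, was 1.52-fold lower at 24 h with an interval of 1.05 to 2.25, from 102 and 40 counts. Its span overlaps that of Zfp398, which stood above control at 24 h, with log2 ratios of 0.63 to 0.92 over the scalings. Under the 1.5-fold rule without genes with shared reads, 1 gene was lower at 6 h and 2 at 24 h. Zfp771 (77.8, 60.5 and 52.1 CPM), Zfp444 (42.9, 31.0 and 29.0 CPM), Zfp566 (9.20, 6.40 and 6.38 CPM) and Zfp296 (58.8, 44.3 and 45.5 CPM) were below control at both times but within the 1.5-fold limit.

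Between 6 h and 24 h most Zfp genes moved little. The median log2 ratio was 0.08, and the median over all genes was -0.03. With TMM 167 of 254 Zfp genes (65.7%) had a ratio above 1, against 45.0% of all genes. By the 1.5-fold rule 6 Zfp genes were higher and 1 lower, while 3.82% of all genes were higher and 1.95% lower. At 2-fold there were 2 higher, Zfp709 and Zfp831, and 0 lower, against 0.644% and 0.302% of all genes. The other 4 higher genes were Zfp882, Zfp467, Zfp984 and Zfp784. Zfp709 was 2.32-fold higher at 24 h than at 6 h (2.10 to 2.56) and Zfp831 2.26-fold (1.996 to 2.56). The median difference from similar genes was 0.01. Zfp473, which takes part in histone mRNA processing, was level at 6 h (15.97 and 16.14 CPM) and stood at 11.75 CPM at 24 h.

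Zfp genes lie in clusters, and 172 of the 254 were within 500 kb of another Zfp gene. These had medians of 0.18 at 6 h and 0.28 at 24 h, and the 82 that stood alone 0.14 and 0.21. After subtraction of the similar genes, the 24 h medians were -0.02 and 0.00, both near 0. Single clusters differed. The chromosome 8 cluster of Zfp709, Zfp882, Zfp617 and Zfp961 had a median of 0.98 at 24 h, and 0.71 above its similar genes. The 11 genes around Zfp811 and Zfp871 on chromosome 17 (32765496 to 33631716) had medians of 0.33 and 0.35, with all 11 above control at 6 h and 10 at 24 h. Among all genes 46.9% were above control at 6 h and 46.3% at 24 h. These 11 genes stood 0.23 and 0.17 above their similar genes. Zfp871 there had 63.8, 95.4 and 116 CPM. The 13 genes of the chromosome 17 cluster that holds Zfp52 had medians of 0.31 and 0.40, and the 12 of the chromosome 13 cluster (67038594 to 67827000), all KRAB genes, 0.32 and 0.41. At 24 h the median differences of these clusters from similar genes were -0.08 and 0.02, and at 6 h they were 0.10 and 0.11. In contrast, the 14 genes of a chromosome 7 cluster (29768552 to 30169775) had 0.02 and 0.17, and the 10 of another (127233061 to 127885996) -0.03 and 0.05. The 6 h signs of these last 2 medians turned with the scaling, and at 24 h both clusters stood below their similar genes, by median differences of -0.13 and -0.15.

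**Figure D5:**
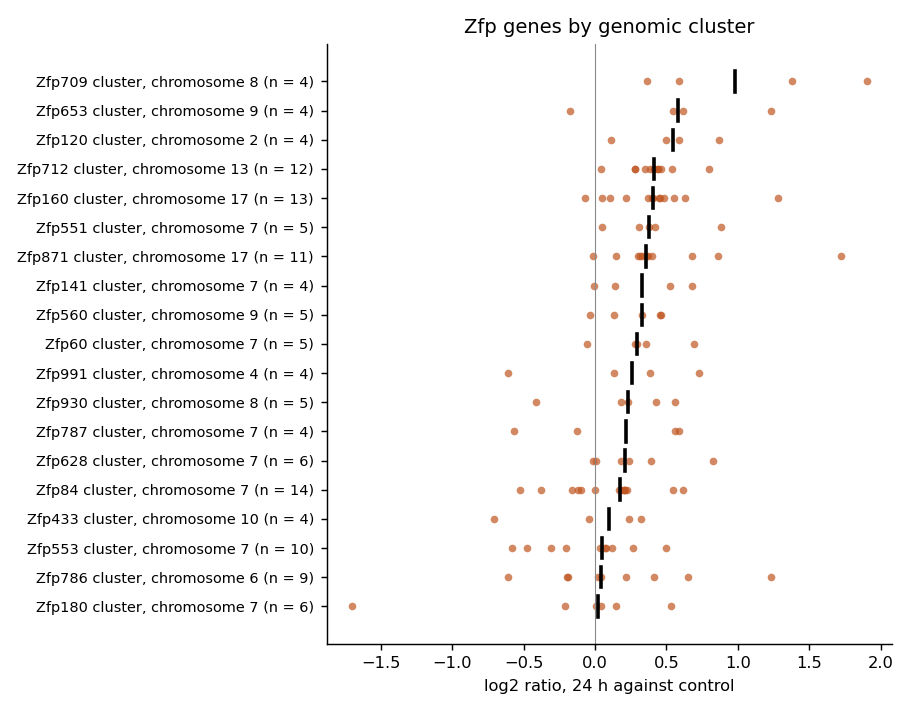
Log2 ratio at 24 h against control (x axis) for Zfp genes in clusters with at least 4 of the 254 genes, each row named by its first gene. Points are genes, 1 library per time, and bars are medians. The cluster of Zfp709 on chromosome 8 has the highest median, 0.98, and Zfp428 is the lowest point, at -1.70.

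Zfp genes with a known part in B cells or immunity stood about as far from control as the 254 genes together. Of 10 such genes, 0 passed the 1.5-fold rule at 6 h, when 5.09% of all genes were higher and 2.04% lower. At 24 h 2 (20%) were higher and 0 lower, against 13.3% and 12.3% of all genes. The median log2 ratios were 0.14 and 0.27, and the median differences from similar genes -0.04 and 0.01. Zfp217, a partner of histone demethylase complexes, had 50.5, 65.6 and 81.4 CPM, 1.61-fold above control at 24 h (1.52 to 1.71), and Zfp292 had 39.2, 49.2 and 60.1 CPM, 1.53-fold (1.44 to 1.64). Zfp318, which B cells need to make IgD beside IgM, had 21.15, 24.30 and 20.89 CPM. Its similar genes had a median of 0.54 at 24 h, whereas Zfp318 stood at -0.02, a value whose sign turned with the scaling. Zfp36 (tristetraprolin), which binds AU-rich mRNA and is no C2H2 protein, had 15.97, 16.20 and 19.37 CPM. Zfp91, a ubiquitin ligase of the NF-kB pathway, had 153, 134 and 127 CPM, and Zfp335, a partner of histone methyltransferases needed for T cell maturation, 50.0, 54.2 and 59.9 CPM. Zfp521, a partner of Ebf1, had 3, 4 and 2 counts and was not among the 254.

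Of the Zfp genes tied to Smad signalling, Zfp451, a SUMO ligase that represses Smad-driven transcription, had 38.2, 39.2 and 37.7 CPM, with a counting interval of 0.914 to 1.06 at 24 h. Zfp423, a Smad partner in BMP signalling, had 2.30, 2.83 and 2.72 CPM from 112, 182 and 79 counts, and its intervals held 1 at both times. Zfp703, a transcriptional corepressor, had 23.6, 31.1 and 31.4 CPM, 1.32-fold above control at 6 h (1.23 to 1.42) and 1.33-fold at 24 h (1.22 to 1.46). None of these 3 passed the 1.5-fold rule, which most genes did not pass either. Among all genes 5.09% were higher and 2.04% lower at 6 h, and 13.3% and 12.3% at 24 h.

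Zfp genes with a part in ribosome assembly, translation or RNA binding lay on both sides of control. Of 11 genes, 0 were past 1.5-fold in either direction at 6 h, against 5.09% higher and 2.04% lower among all genes. At 24 h 0 were higher and 1 (9.09%) lower, Zfp593, against 13.3% and 12.3%. With TMM scaling 4 of the 11 (36.4%) were above control at 6 h and 3 (27.3%) at 24 h, against 46.9% and 46.3% of all genes. The medians of the 11 were -0.05 and -0.17, and were above 0 at 6 h with total counts and at both times with TPM. Zfp622, which helps mature the large ribosomal subunit, had 181, 141 and 134 CPM, 1.28-fold and 1.35-fold lower than control (intervals at 24 h 1.30 to 1.40). Zfp706 had 310, 266 and 267 CPM, and Zfp106, an RNA-binding protein, 496, 479 and 429 CPM. Zfp207 had 276, 271 and 247 CPM. On the other side Zfp638 had 86.8, 96.3 and 113.5 CPM and Zfp346 24.3, 26.0 and 31.7 CPM, both 1.31-fold above control at 24 h and above it under each scaling, as was Zfp36.

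Among 9 Zfp genes of chromatin and promoter regulation the medians were 0.08 and 0.22, and by the 1.5-fold rule 2 genes were above control at 24 h, Zfp532 (5.31, 6.54 and 8.37 CPM, 1.58-fold) and Zfp592 (68.7, 83.9 and 104 CPM, 1.51-fold). Both belong to one chromatin complex with Zmynd8, as does Zfp687, which had 38.6, 44.1 and 52.9 CPM (1.37-fold) and did not pass. The 2 of 9 higher genes compare with 13.3% of all genes. Of 5 KRAB genes listed for imprinting, retroelement silencing or another role, 1 (20%) was higher at 24 h, against 13.3% of all genes. It was Zfp809, which silences murine retroviruses by binding the primer-binding site of their DNA, at 7.65, 9.79 and 11.75 CPM (1.54-fold, 1.32 to 1.78), and its span overlaps that of Zfp599. Zfp445, which keeps imprints, had 91.9, 114 and 128 CPM, and Zfp568, which represses a placental Igf2 transcript, 40.1, 45.2 and 46.2 CPM. Zfp932, which has shared reads, lay below control at 18.5, 16.1 and 15.6 CPM, although with TPM its 24 h ratio was above 1.

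The machinery through which KRAB proteins act was read from a list of genes, cut to those with at least 100 control counts. Expression in control was thus fixed by this minimum, and Atf7ip2, also listed, had 0 counts in every library. The 30 genes kept, Zfp809 aside, were those for Trim28, Setdb1, HP1 proteins, NuRD subunits, DNA methyltransferases and related factors. Of these 30, 0 were past 1.5-fold at 6 h and 1, Atf7ip, was higher at 24 h. Among all genes 5.09% were higher and 2.04% lower at 6 h, and 13.3% and 12.3% at 24 h. The median was -0.06 at 6 h and -0.08 at 24 h, above 0 with total counts and TPM. Trim28 stood at 1150, 934 and 827 CPM, 1.23-fold and 1.39-fold lower than control. Setdb1 stood at 106, 105 and 107 CPM, while its cofactor Atf7ip had 42.2, 60.6 and 74.5 CPM (1.77-fold at 24 h, 1.66 to 1.88).

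Other zinc finger genes moved by much the same amount. Taken here were genes not named Zfp and a number alone, so Zfp genes with a letter after the number, such as Zfp729a, were included. The 43 with a KRAB match and at least 2 fingers had medians of 0.20 at 6 h and 0.40 at 24 h. Among these 43, Gm14308, Gm14434 and Gm4724 carry the same 316, 465 and 229 counts and cannot be told apart. The 75 with at least 5 fingers and no KRAB match had medians of 0.15 and 0.32. By family name, and overlapping those classes, the 32 Zbtb genes had medians of 0.14 and 0.19, and the 9 Zscan genes 0.18 and 0.32. The Zfp medians of 0.16 and 0.26 lay within this range.

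Promoter windows were matched for 211 of the 254 genes, 1 per gene, the one nearest its RefSeq start. The 32851 windows set beside them were not picked in this way, so the sets are not alike. CAGAC or GTCTG was in 55.5% of them and in 49.6% of all 32851 windows. It was in 62% of the windows of KRAB genes and 45.1% of those without a KRAB match. In genes at least 1.5-fold higher at 24 h the share was 51.4% (18 of 35), no higher than in all 211. GGCGC or GCGCC was in 52.1% of the 211, 39.5% of KRAB and 72% of other Zfp windows, and 36.9% of all windows. Short motifs of this kind occur in many windows, and a match is a description of letters only.

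Reads shared between near-identical genes limited some values. Expected counts were whole in every library (within 0.005 of a whole number) for 199 of the 254 genes and fractional for 55. Zfp966 and Zfp967 on chromosome 2 carry the same values in each library (191.07, 343.97 and 195.13 expected counts) and cannot be told apart here. Genes with whole counts stood at medians of 0.15 (6 h) and 0.26 (24 h), and those with shared reads 0.22 and 0.26.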

How the data were processed

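CH12 mRNA was sequenced in 3 libraries. Per the submitters' processing notes, CASAVA 1.8.2, STAR, RSEM and bedtools were used with mm10, and per the labels' protocols the mRNA was selected by poly(A). The authors deposited RSEM expected counts, which were rounded to whole numbers here, and TPM, their level per effective length. The deposited length columns gave transcript length. The sources used here give neither the annotation release, the strand setting nor a culture time for the control. TMM factors (edgeR 4.0.16, R 4.3.3) were 0.946, 1.00 and 1.06 for control, 6 h and 24 h. Other scalings tried were total counts, upper quartiles, TPM and DESeq2 1.42.0, beside other minimums. Intervals are exact conditional (Clopper-Pearson) 95% intervals of count ratios, and a count of 0 was set to 3 counts. KRAB domains were found with a HMMER 3.4 profile (E-value at most 1e-05) built from 179 sequences. The calculations were tested on simulated data.

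Genes named were the 8 highest and 8 lowest members against control at each time by the ratio of CPM + 1, the 3 highest and 3 lowest between times, the 5 most abundant, the 3 on each side of the minimum, and role lists. Members and lists were chosen with earlier results of these data known.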

Additional observations from a re-analysis of the deposited data

How the results depend on the processing

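No paired analysis was possible because each group had 1 library, and for the same reason no library could be left out. Of 144 alternative values for the 12 results, 115 kept their direction and size (medians within 0.1 log2 units, counts within 1.5 times). Some of the 144 could not change. A library's scaling factor cancels in the difference from similar genes, so DESeq2, total-count and upper quartile scaling repeat its value. Dropping the minimum of 30 counts also left every count as it was. The 115 are therefore no measure of robustness. At 6 h the 10 higher genes became 18 with total counts, 34 with TPM and 3 at 2-fold, the 2 lower became 1 with whole counts only and 1 at 2-fold, and the median of 0.16 became 0.32 with TPM. At 24 h the median of 0.26 became 0.42 with total counts and 0.53 with TPM. The 42 higher genes became 77 with total counts, 110 with TPM, 27 with the length trend removed and 10 at 2-fold. The 5 lower genes became 2 with total counts, 3 with upper quartile scaling, 2 with TPM, 3 by CPM + 1, 2 with whole counts only and 1 at 2-fold. The 24 h difference from similar genes, -0.01, turned sign to 0.0017 with a minimum of 50 counts, 0.0014 with 200, 0.0142 with 25 similar genes, 0.0139 with 200 and 0.2118 with length alone. From 6 h to 24 h the 6 higher genes became 10 with total counts, 11 with TPM, 3 with a minimum of 200 counts and 2 at 2-fold, and the 1 lower became 3 with a minimum of 50 and 0 at 2-fold. The shifts with total counts and TPM go with a shift of all genes, by 0.16 and 0.26 at 24 h. Leaving genes with C2H2 fingers out of the similar genes, an alternative chosen after seeing the data, gave 0.02, -0.01 and 0.01. The rest of the causes were not tested. Depth limits the genes near 100 control counts, where 1 library sets each value and counting intervals are wide.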
